A study of Mus musculus with 24 samples.

Results

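The experiment described here trapped the ligands of the receptor FGFR2b for a day, from E9.25 to E10.25 (embryonic days), in mouse embryos whose inner ear was at the otocyst stage, a closed epithelial vesicle. Its members are the 8 libraries whose doxycycline exposure is labelled E9.25+24h, out of 22 libraries with a column in the count table and 24 described in the series. Both genotypes carried Rosa26rtTA/+, which places the doxycycline-dependent activator rtTA under the broadly active Rosa26 locus. The control (con) embryos carried nothing further, and the experimental (R2b) embryos also carried Tg(tetO-s(dn)Fgfr2b)/+, a transgene for a soluble dominant-negative FGFR2b. All females, and so the con embryos too, received doxycycline as a 1.5 mg/kg intraperitoneal injection followed by chow at 200 mg/kg. Otocyst epithelia were dissected and pooled by genotype within the litter of each of 4 pregnant females, so that a library is a pool of embryos and litters 310, 315, 329 and 3716 each gave 1 con and 1 R2b library. Poly(A) RNA was sequenced in stranded libraries. The activator is not restricted to the ear and the trap is secreted, so the labels do not limit its action to the cells that were dissected.

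Fibroblast growth factors are secreted ligands that signal through receptor tyrosine kinases, largely by the Ras and ERK pathway, which turns on ETS transcription factors and a set of feedback inhibitors. The IIIb splice form of FGFR2 is made by epithelia and binds ligands such as FGF3 and FGF10. In the developing inner ear these ligands are known for roles in otocyst formation and in the shaping of the canals and the cochlea. The comparison asked which transcripts of the otocyst epithelium differ after a day of the trap.

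Each library held 19268729 to 22509344 counts, with 1.53% to 1.70% of them from mitochondrial genes. Transgene reads fell in Fgfr2 and Ighg1 and separated the genotypes as labelled. Con libraries held 2391 to 3092 counts of Fgfr2 and R2b libraries 28103 to 43076, and for Ighg1 these were 1 to 5 and 26082 to 42515. The two-sided exact permutation p of each was 0.02857, the smallest that 4 libraries against 4 can give in this test, which takes no account of the litter pairs. Neither gene is used further, since native Fgfr2 reads cannot be told from those of the transgene. In the fit with litter as a block, 6086 of 14979 genes tested (40.6%) had an adjusted p (FDR, edgeR quasi-likelihood test with Benjamini-Hochberg adjustment) under 0.05, the threshold for a call. Of all genes tested, 20.5% were called higher in R2b and 20.1% lower, and the share of any gene list is to be read against those values. Most called differences were small, and their absolute log2 fold change had a median of 0.292. A fold change of at least 1.5 was reached by 1132 of the higher and 310 of the lower genes, at least 2 by 441 and 104, and at least 4 by 30 and 17.

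Levels are given below as counts-per-million (CPM) values in the litter order 310, 315, 329 and 3716, and differences as log2 fold changes of R2b over con, with the standard error (SE) of the blocked fit. Markers of the otic epithelium were high in every library. The 12 otic markers summed to 2285 to 3651 CPM in con and 3234 to 5116 CPM in R2b, and 5 of them were called higher and 2 lower. Oc90 alone made 649 to 1601 CPM of the con sums and 1296 to 2903 CPM of the R2b sums. The higher sums in R2b thus reflect that gene in large part, and the median log2 fold change of the 12 was 0.141. RNA of neighbouring tissues was present in amounts that depended on the litter. Summed over 9 blood genes it was 244, 155, 9.82 and 1631 CPM in con and 252.5, 134, 12.8 and 635.5 CPM in R2b. The 10 endothelial genes summed to 52.6, 29.2, 15.9 and 294.9 CPM in con and 42.8, 30.0, 15.6 and 135.5 CPM in R2b. Litter 3716 was thus highest and litter 329 lowest in both genotypes, and the con pool of litter 3716 held more blood and endothelial RNA than its R2b pool. The 13 mesenchymal genes followed the same order of litters, at 393, 237, 95.8 and 1377 CPM in con and 487, 275, 109 and 1286 CPM in R2b. Of these 3 marker lists, 2 blood, 4 endothelial and 1 mesenchymal gene were called lower, and 2 mesenchymal genes, Dcn and Lum, were called higher. As shares, 22.2% of the blood, 40% of the endothelial and 7.69% of the mesenchymal genes were lower, against 20.1% of all genes tested. The 15.4% of mesenchymal genes called higher compares with 20.5% of all genes tested. Without litter 3716, the calls of Slc4a1 and Hba-x (blood) and of Cldn5, Kdr and Plvap (endothelium) were lost, while Tek, the angiopoietin receptor, stayed called. The Hba-x call was also lost without litter 315 and without litter 329. Without the litter block, edgeR called 0 genes in each of the 3 lists, and Tek had an FDR of 0.2035. DESeq2 with the block called 0 blood, 1 endothelial and 3 mesenchymal genes. The part of these cells in the results that follow was not tested beyond leaving out each litter, and in pooled tissue a loss of cells of a type cannot be told from less RNA per cell.

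**Figure D1:**
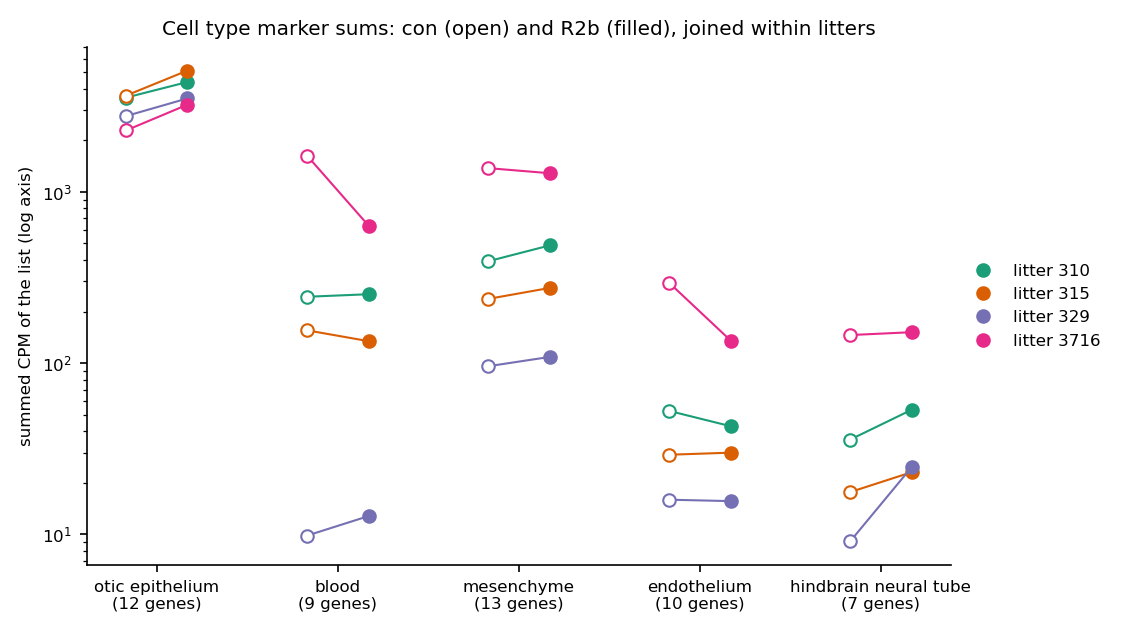
Summed CPM of 5 marker lists (log axis) in the con pool (open circle) and the R2b pool (filled circle) of each litter, joined by a line. Otic markers lie between 2285 and 5116 CPM in all 8 libraries, while the blood sum runs from 9.82 CPM in litter 329 to 1631 CPM in litter 3716. Oc90 alone makes 649 to 2903 CPM of the otic sums.

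The transcripts that follow FGF signalling most directly were strongly reduced. Of 14 FGF readout genes, 12 fell and 2 rose, with a median log2 fold change of -1.25 against -0.0068 over all genes tested. The litter medians were -1.19, -1.35, -1.44 and -0.95, so the reduction was present in each litter and smallest in litter 3716. In all 12 genes that fell, every R2b library lay below every con library, a separation that 1529 of the 14979 genes tested showed, while 22.4% of all genes tested had separate ranges in either direction.

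Etv4 and Etv5, of the PEA3 group of ETS transcription factors, held the largest reductions of the list, and their relative Etv1 fell too. Etv4 (ENSMUSG00000017724, chromosome 11, 101769742 to 101785371, minus strand, GRCm38) was at 42.8, 38.2, 27.5 and 32.9 CPM in con and 6.51, 3.56, 1.20 and 8.95 CPM in R2b. Its log2 fold change was -2.89 (SE 0.27, FDR 3.51e-05). Litter 329 kept the least Etv4 under the trap and litter 3716 the most. Etv5 (ENSMUSG00000013089, chromosome 16, 22381309 to 22439719, minus strand, GRCm38) was at 116, 111, 118 and 107 CPM in con and 22.2, 18.6, 11.8 and 32.2 CPM in R2b, a log2 fold change of -2.45 (SE 0.18, FDR 7.36e-06). Con pools differed little in Etv5, and the R2b pools again ran from litter 329 up to litter 3716. Etv1 was less abundant, at 8.52, 7.499, 4.83 and 9.26 CPM in con and 2.31, 1.56, 0.935 and 4.74 CPM in R2b, a log2 fold change of -1.76 (SE 0.22, FDR 1.81e-04), and its R2b pool of litter 3716 lay just below the con pool of litter 329.

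Feedback inhibitors of the Ras and ERK pathway fell by amounts that depended on the family member. Spred3, of the membrane-bound Sprouty-related inhibitors, was at 52.7, 52.1, 52.2 and 39.1 CPM in con and 12.1, 9.99, 8.41 and 10.8 CPM in R2b, with a log2 fold change of -2.24 (SE 0.11, FDR 4.55e-07). Spred2 fell from 59.7, 56.4, 54.9 and 66.5 CPM to 23.4, 22.5, 21.3 and 34.5 CPM, or -1.24 (SE 0.072, FDR 1.70e-06) on the log2 scale. Spred1 fell least of the 3, from 179, 169, 182 and 157 CPM to 105.3, 106, 99.7 and 124 CPM, or -0.66 (SE 0.07, FDR 6.80e-05). The Spred paralogs were thus graded in their response, from Spred3 to Spred1, with no overlap between genotypes in any. Among the Sprouty genes, Spry4 was at 6.27, 5.36, 6.95 and 11.29 CPM in con and 3.21, 1.51, 0.623 and 3.98 CPM in R2b (-1.76, SE 0.28, FDR 8.90e-04). Spry2 and Spry1 changed by -1.26 (SE 0.095, FDR 8.37e-06) and -1.20 (SE 0.073, FDR 2.26e-06), with con ranges of 27.9 to 30.8 and 27.2 to 37.0 CPM and R2b ranges of 10.5 to 15.3 and 11.01 to 15.0 CPM. Dusp6, a phosphatase that inactivates ERK, went from 92.9, 75.0, 69.3 and 84.6 CPM to 32.2, 20.4, 14.6 and 34.1 CPM (-1.71, SE 0.12, FDR 4.82e-06). Dusp4, a nuclear phosphatase of MAP kinases, fell by less, with -0.97 (SE 0.066, FDR 4.63e-06). Il17rd, a transmembrane antagonist of FGF signalling, had the smallest fall, from 229, 228, 241 and 175 CPM to 171, 174, 173 and 167 CPM (-0.34, SE 0.058, FDR 0.00116). Its con pool of litter 3716 stood near the R2b level of all litters.

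The other two readout genes moved up. Flrt3, a transmembrane protein that binds FGF receptors, was at 44.1, 44.6, 46.8 and 48.6 CPM in con and 71.2, 84.2, 70.5 and 75.8 CPM in R2b, with every R2b pool above every con pool and a log2 fold change of 0.71 (SE 0.055, FDR 9.89e-06). Egr1, an immediate early transcription factor, was low in all libraries, at 0.766, 0.497, 0.690 and 1.66 CPM in con and 1.41, 0.877, 1.34 and 2.84 CPM in R2b. It was higher in R2b in 4 of 4 litters, by 0.84 (SE 0.21, FDR 0.0094), with overlapping ranges. Egr1 was not called without the litter block (FDR 0.246, the highest over its alternatives), with DESeq2 or in the fit of all 22 libraries.

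**Figure D2:**
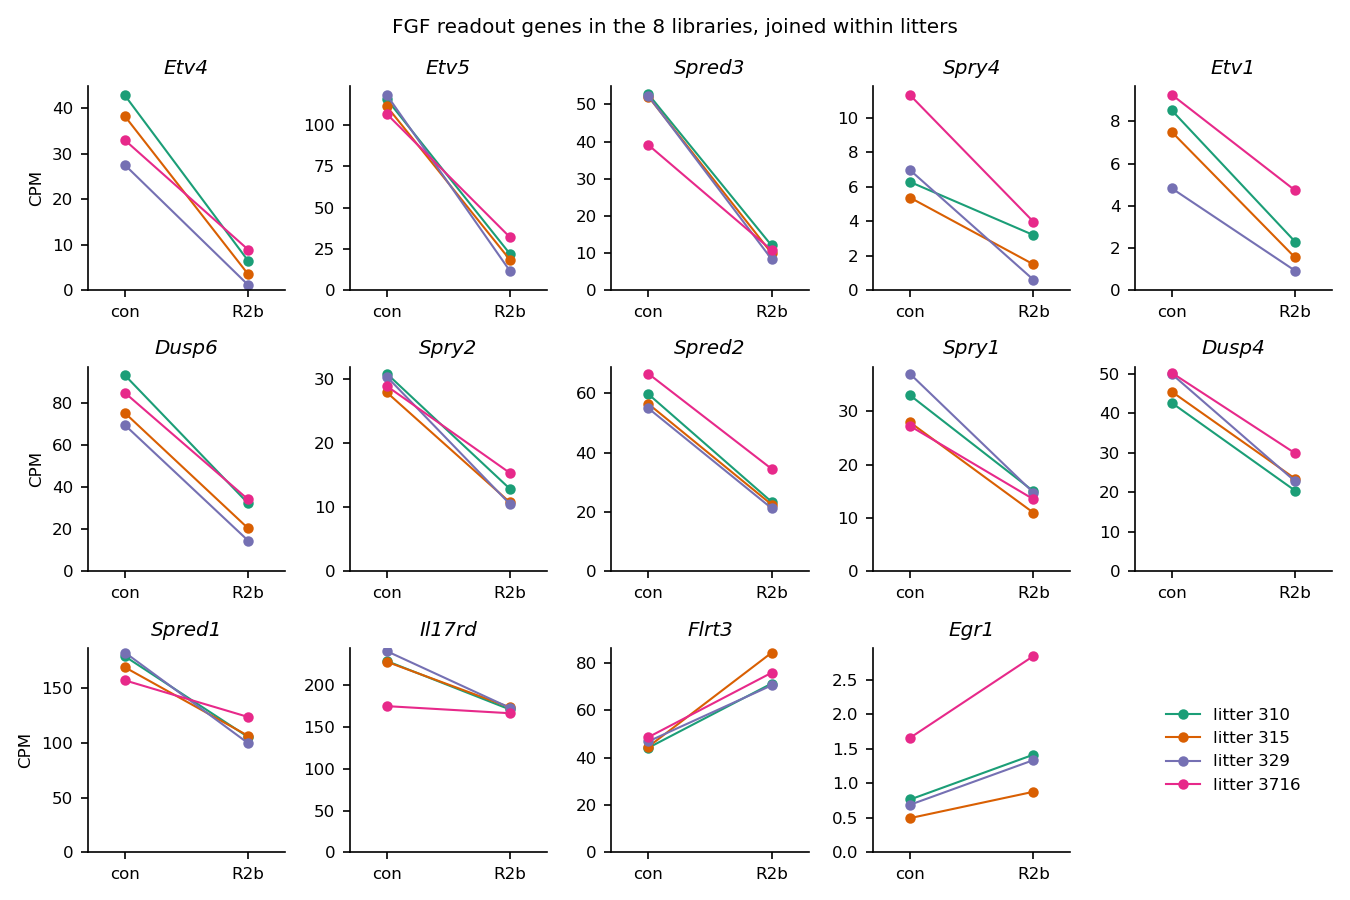
CPM of the 14 FGF readout genes in the 8 libraries, with con on the left and R2b on the right of each panel and a line joining the pools of a litter. All 4 lines fall in 12 panels, from Etv4 (log2 fold change -2.89) to Il17rd (-0.34), and all 4 rise for Flrt3 (0.71) and Egr1 (0.84).

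The bases just upstream of 3 of the genes with the largest falls are shown because ETS factors and AP-1 are textbook effectors of ERK. They are the 250 bases before a RefSeq start site (GRCm38.p6), 5′ to 3′ on the strand of the gene, at chr16:22438369-22438618 on the minus strand for Etv5, chr7:29168648-29168897 on the minus strand for Spred3 and chr12:38779832-38780081 on the plus strand for Etv1. None of these bases lies in a GENCODE M21 exon, and each window lies inside the span of its gene there, in an intron, since that annotation also holds starts further upstream. Capitals mark GGAAG, the core letters of ETS sites, or CTTCC on the opposite strand.
Etv5: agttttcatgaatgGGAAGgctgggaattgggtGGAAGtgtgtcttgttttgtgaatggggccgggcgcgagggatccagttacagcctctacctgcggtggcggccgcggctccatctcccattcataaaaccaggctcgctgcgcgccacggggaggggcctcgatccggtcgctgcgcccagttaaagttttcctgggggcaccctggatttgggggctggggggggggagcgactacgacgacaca
Spred3: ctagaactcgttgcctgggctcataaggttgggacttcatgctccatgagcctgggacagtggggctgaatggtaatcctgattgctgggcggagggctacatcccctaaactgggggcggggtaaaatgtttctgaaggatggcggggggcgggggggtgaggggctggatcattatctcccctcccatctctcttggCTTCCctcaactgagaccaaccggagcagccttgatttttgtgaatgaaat
Etv1: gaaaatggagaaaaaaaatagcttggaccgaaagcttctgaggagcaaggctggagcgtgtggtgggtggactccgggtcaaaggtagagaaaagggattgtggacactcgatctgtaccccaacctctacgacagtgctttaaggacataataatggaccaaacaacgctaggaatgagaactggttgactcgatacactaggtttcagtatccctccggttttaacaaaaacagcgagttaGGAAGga
Of the 14 readout genes, 10 had a promoter entry, and the longer ETS letters CCGGAAG, the AP-1 letters TGANTCA and the CRE letters TGACGTCA, searched on both strands, matched in none of their windows. Among 32851 promoter windows of that length, 6.91%, 6.75% and 1.55% held those motifs. The short core GGAAG, chosen after that search, was in 64.1% of all windows with a median of 1 match, and it occurred 2 times in the window printed for Etv5 and 1 time each in those of Spred3 and Etv1. Etv5 and Etv1 each have another RefSeq start site, whose window, not printed, partly lies in GENCODE exons and held 0 matches to GGAAG.

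Genes of the FGF ligands themselves were mostly higher under the trap. Of 15 ligand, receptor and cofactor genes tested, calls were higher for 8 and lower for 2, and the median log2 fold change was 0.31. Fgf3 was at 8.62, 9.54, 16.5 and 9.91 CPM in con and 17.5, 22.8, 27.1 and 18 CPM in R2b, a log2 fold change of 0.95 (SE 0.093, FDR 4.33e-05). Fgf8 rose from 1.72, 1.24, 0.849 and 1.75 CPM to 4.15, 5.26, 4.72 and 3.41 CPM, or 1.64 (SE 0.24, FDR 4.83e-04). Both genes had no overlap between genotypes, and the con pool of litter 329 held the most Fgf3 of the con pools. Fgf15 rose from 4.02, 3.73, 5.84 and 3.82 CPM to 9.29, 10.0, 12.5 and 6.73 CPM (1.14, SE 0.12, FDR 7.70e-05). Fgf20 (1.04) and Fgf10 (0.22) were also called higher, and Fgf16 (-0.62) lower, so the ligands did not move as 1 group. Of the receptors, Fgfr3 was called higher (0.64, SE 0.10, FDR 8.07e-04), and Fgfr1 (0.02) and Fgfr4 (0.31) were not called. Fgfrl1, a receptor without a kinase domain, rose by 0.34 (SE 0.039, FDR 1.21e-04), and Flrt2 by 0.48 (SE 0.12, FDR 0.011). Fgfbp3, a ligand carrier, was the other gene called lower (-0.55). In the fit of all 22 libraries, 4 of the 15 were called, where Fgf3 had an FDR of 0.0517.

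Of 15 other genes that answer to MAP kinase signalling, calls were higher for 3 and lower for 4, and the median was -0.004. The 20% higher and 26.7% lower lie near the shares over all genes tested, so the counts set the list apart in neither direction. Mycn, a growth-promoting transcription factor, fell from 111, 106, 138 and 104.8 CPM to 56.2, 52.6, 61.8 and 68.0 CPM (-0.94, SE 0.071, FDR 8.80e-06), and Phlda1 fell by 0.89 (SE 0.059, FDR 3.46e-06). Dusp1, a phosphatase induced by growth factors and stress, fell by 0.59 (SE 0.085, FDR 4.33e-04), and the immediate early gene Ier2 fell by 0.22 (SE 0.037, FDR 0.00102). The AP-1 genes Jun (0.33, SE 0.051, FDR 6.07e-04) and Junb (0.50, SE 0.17, FDR 0.0405) rose instead, together with Errfi1 (0.11), an inhibitor of the EGF receptor. Fos (0.29) and Myc (0.06) were not called.

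The transcription factors that mark the regions of the otocyst moved in both directions. Among 18 genes of the dorsal otocyst, 12 were called higher and 4 lower, at a median of 0.39. The largest rise was Bmper (ENSMUSG00000031963, chromosome 9, 23223076 to 23485200, plus strand, GRCm38), a secreted modulator of BMP signalling, at 60.2, 66.0, 44.5 and 40.3 CPM in con and 191, 219.8, 185 and 152 CPM in R2b. Its log2 fold change of 1.84 (SE 0.059, FDR 5.35e-08) came with R2b pools that all lay far above the con pools. Wnt2b, a Wnt ligand, rose by 1.10 (SE 0.072, FDR 3.45e-06), from 41.1 to 106 CPM to 97.4 to 186 CPM. The Iroquois factors Irx3, at 159.8, 148, 137 and 129 CPM in con and 249, 265, 261 and 245 CPM in R2b (0.83), and Irx5 (0.95) rose together. Msx1 (0.72), Msx2 (0.77), Lmx1a (0.61), Gbx2 (0.44), Dlx5 (0.43), Dlx6 (0.27), Irx2 (0.27) and Bmp4 (0.16) were called higher with smaller changes.

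The 4 dorsal genes that fell did so without overlap between genotypes. Gata2, a zinc finger factor, was at 72.2, 72.7, 39.7 and 43.2 CPM in con and 34.0, 37.2, 20.2 and 23.3 CPM in R2b, a log2 fold change of -0.98 (SE 0.05, FDR 7.09e-07). Hmx2 and Hmx3, neighbouring homeobox genes of the vestibular system, changed by -1.05 (SE 0.071, FDR 3.96e-06) and -0.72 (SE 0.057, FDR 1.07e-05). Dlx3 fell by 1.11 (SE 0.11, FDR 3.84e-05), from 8.39 to 15.3 CPM to 4.78 to 7.51 CPM. Its fall stood beside rises of its relatives Dlx5 and Dlx6, so genes of 1 homeobox family moved in opposite directions. Of the 18 genes, 16 were called without litter 329 or litter 3716, as in all litters, 15 without litter 310 or 315, and 10 without the litter block.

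Ventral and pan-otic genes were divided more evenly, with 9 of 27 called higher, 8 lower and a median of 0.01. The homeobox gene Otx2 (ENSMUSG00000021848, chromosome 14, 48657677 to 48673819, minus strand, GRCm38) was at 40.4, 31.8, 21.2 and 17.6 CPM in con and 9.62, 8.53, 2.54 and 3.27 CPM in R2b, a log2 fold change of -2.28 (SE 0.15, FDR 3.32e-06). Six2 (ENSMUSG00000024134, chromosome 17, 85684277 to 85688274, minus strand, GRCm38) was at 111, 103, 70.0 and 74.6 CPM in con and 23, 27.2, 7.30 and 26.2 CPM in R2b, or -2.15 (SE 0.19, FDR 2.46e-05). Otx1 went from 62.8, 68.5, 57.1 and 44.1 CPM to 20.8, 24.2, 18.6 and 18.5 CPM, or -1.50 (SE 0.065, FDR 2.88e-07). These 3 genes stood well apart from the rest of the list, with no overlap between genotypes, and litter 329 had the lowest R2b levels of Otx2 and Six2. The other 5 that fell changed by -0.47 (Tbx3) to -0.18 (Sall4), and included the T-box gene Tbx1 (-0.37, SE 0.037, FDR 4.38e-05), known for its part in ear and pharyngeal development.

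Among the genes that rose in this list, Pax2, an early otic transcription factor, went from 121, 124, 126 and 106 CPM to 191, 195, 184 and 175 CPM, or 0.64 (SE 0.035, FDR 1.20e-06). Oc90, which encodes the main protein of otoconia, was at 1424, 1601, 660.1 and 649 CPM in con and 2219, 2903, 1333 and 1296 CPM in R2b. It rose in 4 of 4 litters, by 0.88 (SE 0.058, FDR 3.45e-06), but its level differed more between litters than between genotypes, the groups overlapped, and it was not called without the litter block (FDR 0.153, the highest over its alternatives). Jag1 (0.67) and Lfng (0.89), a Notch ligand and a modifier of Notch that mark the prosensory region, rose with Dach2 (0.69), Dach1 (0.58), Sall1 (0.54), Sox10 (0.27) and Prox1 (0.20). Gata3 (-0.03), Eya1 (0.01), Sox2 (0.08) and Sox9 (-0.04) were not called.

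**Figure D3:**
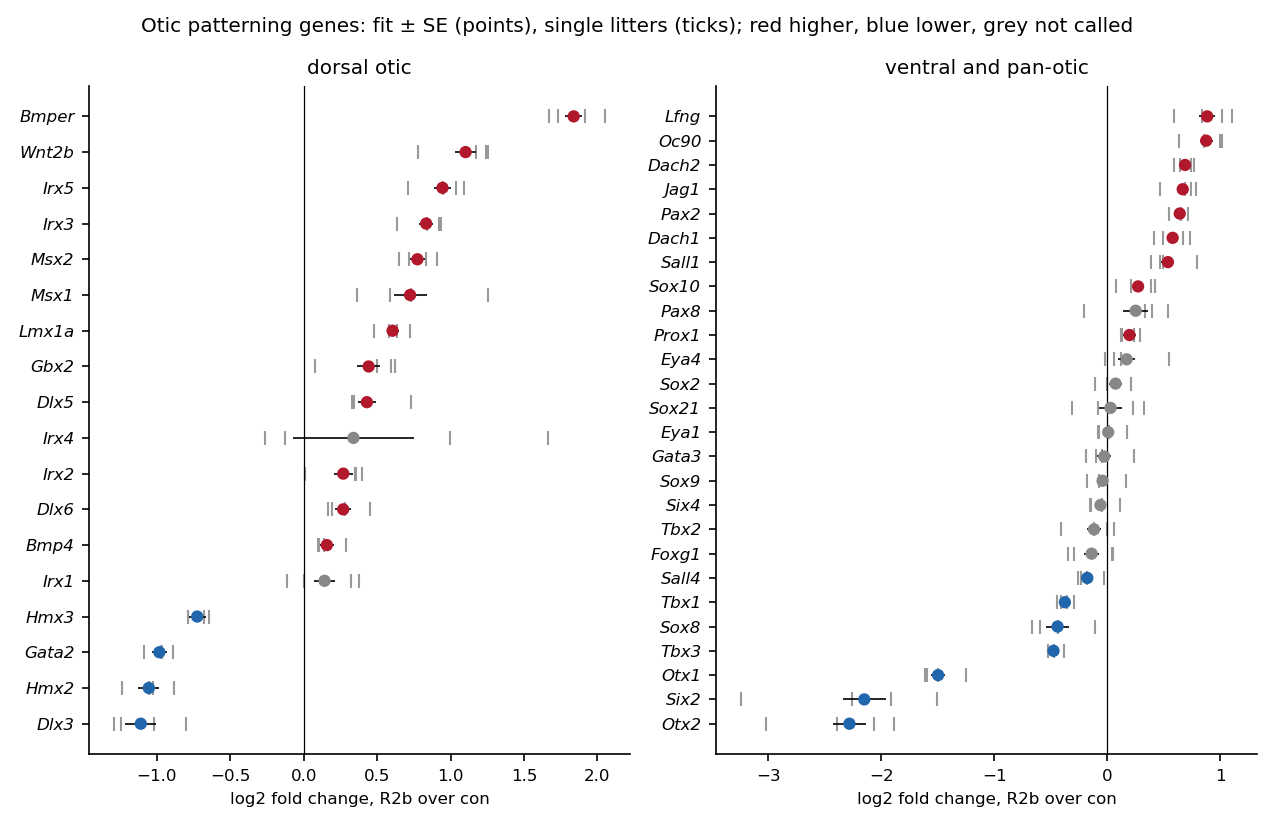
Log2 fold change of R2b over con for 18 dorsal otic genes (left) and 26 of the 27 ventral and pan-otic genes (right), with the blocked fit as a point, its SE as a bar and each litter as a tick. Red points are called higher, blue lower and grey not called. Bmper (1.84) lies at 1 end of the left panel and Dlx3 (-1.11) at the other, and Otx2 (-2.28), Six2 (-2.15) and Otx1 (-1.50) stand apart on the right.

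Genes of the otic neuroblasts, which leave the ventral vesicle to form the cochleovestibular ganglion, gave few calls. Of 19 tested, 1 was called higher and 3 lower, with a median of -0.095 and litter medians of 0.26, 0.37, -0.16 and -0.96. Isl1, a LIM homeobox factor of ganglion and sensory cells, was at 46.3, 42.2, 26.3 and 42.7 CPM in con and 33.2, 28.1, 12.1 and 20.9 CPM in R2b, lower in 4 of 4 litters with overlapping ranges and a log2 fold change of -0.78 (SE 0.10, FDR 2.25e-04). Neurog1, the proneural factor of these neurons, was at 15.2, 12.5, 25.2 and 16.0 CPM in con and 20.2, 22.1, 25.1 and 22.6 CPM in R2b, higher in 3 of 4 litters (0.42, SE 0.11, FDR 0.0139). The Neurog1 call was lost without litter 315 (0.31, FDR 0.0561), in the fit of all libraries (FDR 0.153) and without the litter block (FDR 0.203). Elavl3 and Elavl4, neuronal RNA-binding proteins, were called only with litter 3716 included, whose con pool was at 37.55 and 25.4 CPM against 6.46 to 8.44 CPM in the other con pools. Without that litter their log2 fold changes were -0.31 and -0.30, and neither was called. That con pool also held the most blood and endothelial RNA, as given above. The calls did not depend on litter 3716 alone, since Elavl3 was also lost without litter 315 or litter 329, and Elavl4 without litter 315. Both were lost with robust dispersion, with DESeq2 and in the fit of all libraries. Without the litter block edgeR called 0 of the 19, with 2 at an unadjusted p under 0.05, and DESeq2 with the block called 2.

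Retinoic acid is made from retinol by dehydrogenases and removed by CYP26 enzymes, and its level patterns the otocyst. Of 13 genes of this pathway, 9 were called higher and 2 lower, at a median of 0.76. Aldh1a3 (ENSMUSG00000015134, chromosome 7, 66390890 to 66427517, minus strand, GRCm38), a retinaldehyde dehydrogenase, was at 19.7, 23.7, 13.4 and 14.1 CPM in con and 89.8, 112, 58.9 and 65.9 CPM in R2b. Its rise of 2.20 (SE 0.046, FDR 3.22e-09) was nearly equal in all litters although its level differed between them. Rdh10, which makes retinaldehyde, rose from 134, 136, 89.8 and 87.9 CPM to 315, 341, 193 and 226 CPM, or 1.26 (SE 0.044, FDR 7.08e-08). Aldh1a1 rose from 31.7, 35.5, 33.0 and 23.4 CPM to 71.8, 75.9, 90.2 and 57.6 CPM, or 1.26 (SE 0.059, FDR 4.55e-07). All 3 synthetic enzymes thus rose without overlap between genotypes, while the third retinaldehyde dehydrogenase, Aldh1a2, was not called (-0.24). The receptor gene Rarb (1.03, SE 0.10, FDR 5.65e-05) and the retinaldehyde reductase Dhrs3 (1.02, SE 0.15, FDR 4.55e-04), both known targets of retinoic acid, rose, as did the binding protein Crabp1 (0.76). The 3 degrading enzymes were divided. Cyp26b1 rose by 0.81 (SE 0.062, FDR 1.01e-05), and Cyp26a1 and Cyp26c1 changed by -0.31 (SE 0.073, FDR 0.00713) and -0.47 (SE 0.035, FDR 8.06e-06). Cyp26c1 was at 115, 109.5, 132 and 159 CPM in con and 81.5, 82.8, 96.2 and 109.7 CPM in R2b, lower in 4 of 4 litters with a small overlap across litters. The number called was 11 or 12 with any 1 litter left out, and 7 without the litter block.

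Genes of cell division were lower as a body, by small amounts. All 29 genes of DNA replication and all 26 of mitosis were called lower, with medians of -0.36 and -0.33 and ranges of -0.57 to -0.18 and -0.43 to -0.22. The litter medians ran from -0.40 to -0.28 for replication and from -0.38 to -0.22 for mitosis, with litter 3716 smallest in both. None reached a fold change of 1.5, and 18 of each list were called without the litter block. Uhrf1, which maintains DNA methylation at replication, was at 283, 278, 329 and 339 CPM in con and 204, 190.4, 230.1 and 259 CPM in R2b (-0.48, SE 0.034, FDR 5.82e-06). The replicative polymerase gene Pole changed by -0.43 (SE 0.038, FDR 2.24e-05), and the helicase subunit Mcm7 by -0.36 (SE 0.03, FDR 1.78e-05). In mitosis, the kinase Aurkb was at 96.9, 97.9, 115 and 111 CPM in con and 73.2, 69.4, 86.6 and 83.7 CPM in R2b (-0.43, SE 0.035, FDR 1.62e-05). The checkpoint kinase Bub1b changed by -0.41 (SE 0.04, FDR 3.86e-05) and the motor protein Kif11 by -0.39 (SE 0.037, FDR 3.66e-05). For Aurkb, Bub1b, Kif11 and Top2a every R2b pool lay below every con pool. That was so for 14 of the 26 mitotic and 18 of the 29 replication genes, and for 1529 of all 14979 genes tested.

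Among the G1 cyclins, Ccnd1, Ccne1 and Ccne2 were called lower. Ccnd1, whose transcription is a known response to growth factors, was at 1204, 1253, 1282 and 1080 CPM in con and 813, 815, 851 and 832 CPM in R2b, a log2 fold change of -0.54 (SE 0.043, FDR 1.33e-05) with no overlap. Ccne1 and Ccne2 changed by -0.47 (SE 0.05, FDR 6.81e-05) and -0.39 (SE 0.069, FDR 0.00152), while Ccnd2 (0.01) and Ccnd3 (0.10) were not called. Over the 13 cyclin and inhibitor genes tested, 5 were called lower and 1, the inhibitor Cdkn1c (0.15), higher. Among p53 targets, 9 of 17 were called higher and 2 lower, at a median of 0.18. Cdkn1a, the inhibitor p21, rose from 65.5, 60.1, 71.8 and 50.2 CPM to 116, 123, 132 and 103 CPM, or 0.94 (SE 0.044, FDR 4.55e-07), without overlap. Trp53inp1 (0.75, SE 0.069, FDR 3.09e-05), Perp (0.90) and Sesn2 (0.68, SE 0.067, FDR 4.43e-05) rose with it, while Mdm2 (-0.05) and Bax (-0.07) were not called and Pmaip1 fell (-0.62, SE 0.19, FDR 0.023).

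Genes of apoptosis were divided, with 5 of 16 higher, 5 lower and a median of 0.001. Bmf, a BH3-only activator of cell death, rose by 0.45 (SE 0.043, FDR 3.53e-05) and Casp8 by 0.62 (SE 0.057, FDR 3.06e-05), and the survival gene Bcl2l1 rose by 0.33 (SE 0.042, FDR 2.00e-04). Bcl2 changed by -0.34 (SE 0.058, FDR 0.00136) and the BH3-only gene Hrk by -1.21 (SE 0.19, FDR 8.52e-04).

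Ribosome biogenesis genes were lower in 19 of 20 cases, with a median of -0.25. The largest change was in Gnl3, a nucleolar GTPase, at 114, 116, 152 and 139 CPM in con and 87.9, 81.7, 98.5 and 103 CPM in R2b (-0.49, SE 0.044, FDR 2.84e-05). Only 5 of the 20 were called without the litter block. Sterol and fatty acid synthesis genes were lower in 16 of 24 cases and higher in 1 (Scd1), with a median of -0.19. Lss, of sterol synthesis, changed by -0.44 (SE 0.048, FDR 8.07e-05). It differed more between litters than between genotypes, and without the litter block 1 of the 24 genes was called. Of 17 genes of ATF4 and the unfolded protein response, 8 were lower, including Atf4 (-0.26, SE 0.037, FDR 3.60e-04) and Slc7a5 (-0.41, SE 0.042, FDR 5.63e-05), and 1, Ddit4, an inhibitor of mTORC1, was higher (0.70, SE 0.052, FDR 7.94e-06). Without the litter block 1 of the 17 was called, and Atf4 (FDR 0.0634) and Slc7a5 (FDR 0.0871) were not. Glycolysis genes gave 3 higher and 7 lower calls among 23, with a median of -0.031. Gapdh was at 10.4 to 14.3 CPM in con and 7.75 to 11.4 CPM in R2b, and its value is uncertain, since it has many near-identical processed pseudogenes that the counting could have drawn reads to or discarded.

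**Figure D4:**
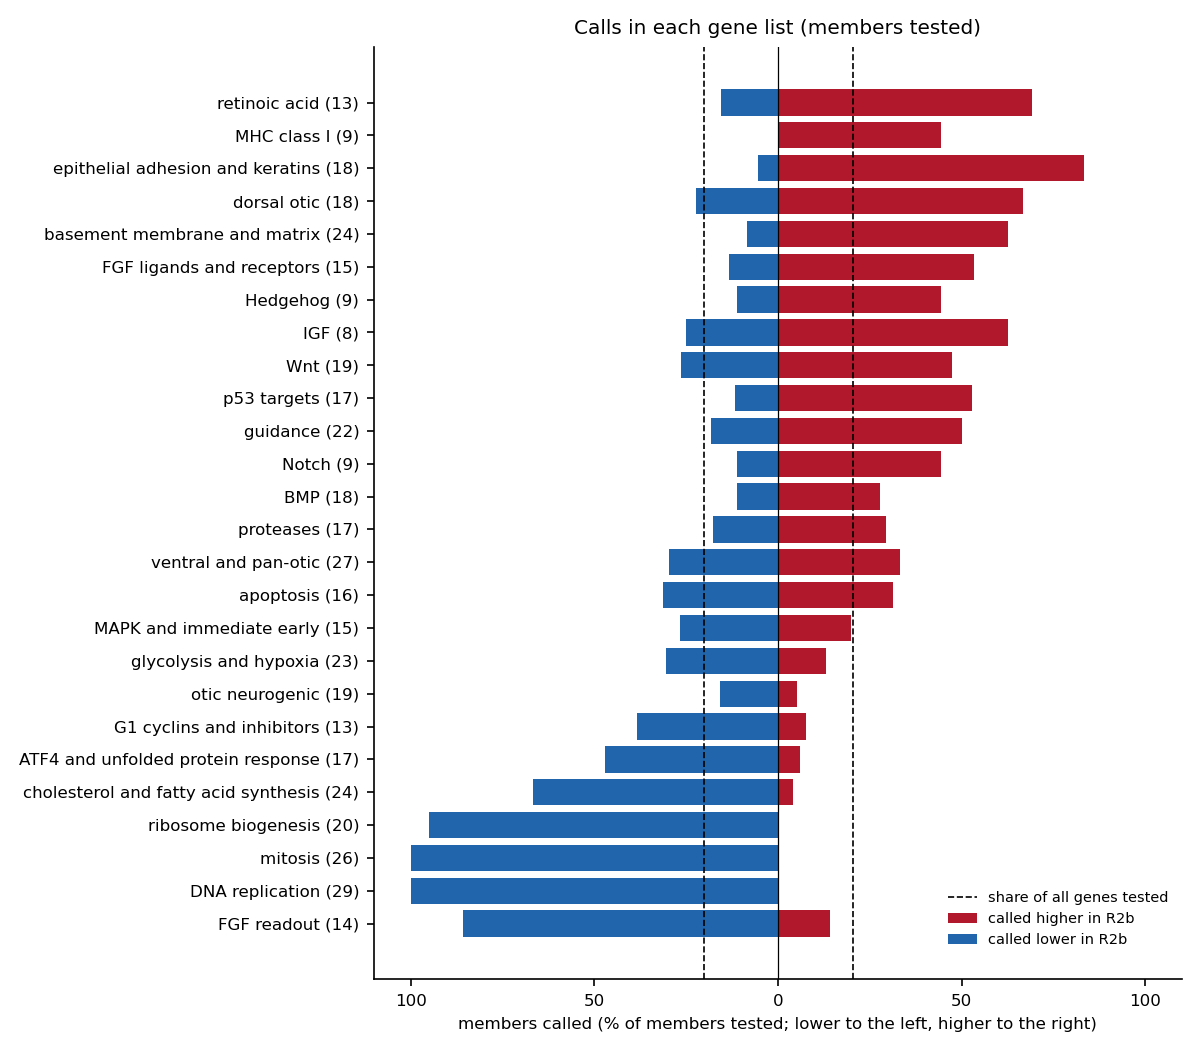
Share of each gene list called lower (blue, to the left) and higher (red, to the right) in R2b, in percent of the members tested, whose number stands beside the name. The dashed lines are the shares over all genes tested, 20.1% lower and 20.5% higher. DNA replication and mitosis reach 100% lower, and epithelial adhesion and keratins (83.3%) and retinoic acid (69.2%) reach furthest to the right.

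Genes of the epithelium and its basement membrane were mostly higher. Of 18 genes of epithelial adhesion and keratins, 15 were called higher and 1 (Esrp1, -0.12) lower, with a median of 0.41. Krt7, a keratin of simple epithelia, was at 28.0, 27.8, 21.98 and 24.3 CPM in con and 75.6, 74.5, 88.2 and 58.4 CPM in R2b (1.53, SE 0.098, FDR 3.04e-06). The calcium-dependent membrane-binding protein Anxa2 went from 42.0, 45.0, 28.4 and 49.4 CPM to 126, 132, 136 and 106 CPM (1.61, SE 0.13, FDR 1.62e-05). Cldn3, of the tight junction, rose by 0.95 (SE 0.045, FDR 4.55e-07), and Cdh2, N-cadherin, by 0.75 (SE 0.04, FDR 9.91e-07). E-cadherin, Cdh1, one of the otic markers above, rose from 168, 163, 156 and 108 CPM to 238, 239, 234 and 196 CPM (0.62). Anxa1 (1.10), Anxa3 (0.97), Krt19 (0.75), Krt18 (0.47) and Krt8 (0.41) rose too. Without the litter block 5 of the 18 genes were called.

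Of 24 basement membrane and matrix genes, 15 were called higher and 2 lower, at a median of 0.37, and in 14 of them every R2b pool lay above every con pool, as 12.2% of all genes tested did. Col18a1, which encodes a collagen of basement membranes, was at 761, 680.4, 625 and 582 CPM in con and 1219, 1207, 1034 and 992 CPM in R2b, and its log2 fold change was 0.75 (SE 0.035, FDR 4.55e-07). The type IV collagen chains Col4a5 (0.74, SE 0.034, FDR 4.55e-07) and Col4a2 (0.63, SE 0.037, FDR 1.95e-06) rose, and the laminin chain Lamb1 rose by 0.69 (SE 0.037, FDR 1.08e-06). The laminin chains Lama3 and Lamb3, found in the laminin that anchors epithelia, rose by 1.92 and 1.57. Lama3 was at 0.431, 0.397, 0.265 and 0.276 CPM in con and 1.65, 1.51, 1.47 and 0.710 CPM in R2b, so that it was far less covered than Col18a1. Fibronectin, Fn1, fell by 0.58 (SE 0.047, FDR 1.33e-05), and Frem1 fell by 0.38 (SE 0.098, FDR 0.0118). The mesenchymal marker sum given above was higher in R2b in 3 of 4 litters, with 2 of its 13 genes called higher and 1 lower, and its part in the matrix genes was not tested. Without litter 3716, where that sum was lower in R2b, 20 of the 24 matrix genes were called, against 17 in all litters.

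Proteases and their inhibitors gave 5 higher and 3 lower calls among 17. Adamts15, a secreted metalloprotease, went from 31.6, 33.4, 21.8 and 24.7 CPM to 107, 116, 76.1 and 83.8 CPM with a log2 fold change of 1.78 (SE 0.04, FDR 3.22e-09), and the membrane-bound Mmp14 rose by 0.53 (SE 0.049, FDR 2.86e-05). Adam12 fell by 1.18 (SE 0.14, FDR 1.14e-04), together with Adamts1 (-0.63) and Adam19 (-0.58). Of 22 guidance genes, 11 were called higher and 4 lower. The receptor Ephb1 rose by 1.36 (SE 0.10, FDR 8.06e-06), from 40.8, 37.9, 30.3 and 25.4 CPM to 109, 124, 78.2 and 46.3 CPM, with the smallest rise in litter 3716. The secreted ligands Sema3a (0.54, SE 0.037, FDR 4.68e-06) and Slit2 (0.42, SE 0.04, FDR 3.66e-05) rose, and the netrin receptor Unc5c fell by 0.60 (SE 0.041, FDR 4.74e-06).

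Lists of the Wnt, Hedgehog and Notch pathways each held more higher than lower calls. In that order, 47.4%, 44.4% and 44.4% were called higher, against 20.5% of all genes tested. The shares called lower were 26.3%, 11.1% and 11.1%, against 20.1% of all genes tested. Of 19 Wnt pathway genes, 9 were called higher and 5 lower, at a median of 0.20. The Wnt target Sp5 was at 13.1, 14.4, 17.1 and 14.9 CPM in con and 28.5, 28.1, 38.3 and 30.2 CPM in R2b (1.07, SE 0.063, FDR 1.86e-06), and Axin2, a negative regulator that Wnt signalling induces, rose by 0.40 (SE 0.041, FDR 5.65e-05). The targets did not all move this way, since Lgr5 (-0.44) and Lef1 (-0.13) were called lower. The ligand genes Wnt7a (1.19), Wnt11 (0.90), Wnt4 (0.78) and Wnt5a (0.48) were all called higher. In the Hedgehog pathway, 4 of 9 genes were called higher and 1 lower (Gli2, -0.15). Its targets Gli1 and Ptch1 rose by 0.63 (SE 0.078, FDR 1.78e-04) and 0.44 (SE 0.055, FDR 1.93e-04), without overlap between genotypes. Of 9 Notch genes, 4 were called higher and 1 lower, and the target Heyl rose from 34.1, 37.4, 34.5 and 46.9 CPM to 79.5, 84.6, 62.9 and 77.3 CPM (0.99), while Hes1 (-0.18) and Hey1 (-0.01) were not called. Without the litter block, 8 of the 19 Wnt, 3 of the 9 Hedgehog and 3 of the 9 Notch genes were called. In the edgeR fit of all libraries these were 9, 4 and 1, and the Heyl call was lost there (FDR 0.0522).

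BMP pathway genes gave 5 higher and 2 lower calls among 18, with a median of 0.11, and the 38.9% called lies near the 40.6% of all genes tested. Follistatin, Fst, rose by 0.90 (SE 0.16, FDR 0.00157), a call lost with robust dispersion (FDR 0.0558) and without the litter block (FDR 0.254), and the targets Id2 (0.18) and Smad6 (0.32) were called higher, while Id1 (0.12) was not called and Id3 (-0.10) was called lower. Of 8 genes of insulin-like growth factor signalling, 5 were higher and 2 lower. Igfbp5 was at 1213, 1031, 888 and 679 CPM in con and 1656, 1610, 1615 and 1158 CPM in R2b (0.68), and Igf1 rose by 0.83 (SE 0.29, FDR 0.0407), while Igfbp3 (-0.57) and the receptor Igf1r (-0.27) fell. Antigen presentation by MHC class I gave 4 calls among 9, all of them higher, with B2m at 30.6, 31.3, 27.0 and 35.7 CPM in con and 55.1, 57.9, 50.7 and 50.2 CPM in R2b (0.78). Without the litter block 2 of the 9 were called, and H2-K1 and H2-M3 were not. The H2-K1 call was also lost in the fit of all libraries, and the H2-M3 call with DESeq2 and without litter 329 or litter 3716.

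Of the listed markers of neural crest and glia, 4 were tested and 3 of them were called higher. The endothelin receptor gene Ednrb rose by 0.45 (SE 0.088, FDR 0.00261), a call lost without the litter block (FDR 0.1023). Erbb3 (0.08), the neuregulin receptor of glia, was not called. Whether the origin of these reads was otic or glial was not tested. Of 7 hindbrain genes, 1 was called higher, and of 4 surface ectoderm genes Wnt6 was (0.22). Without the litter block edgeR called 0 in both lists, and the Wnt6 call was also lost without litter 329 and in the fit of all libraries. Of 3 macrophage and 5 sex-linked genes tested, edgeR and DESeq2 called 0, with 1 and 0 at an unadjusted p under 0.05 in edgeR.

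The largest rises of all, among genes that averaged 1 or more in log2 CPM and moved one way in 4 of 4 litters, were in genes outside the FGF pathway. Man1a (ENSMUSG00000003746, chromosome 10, 53904785 to 54076609, minus strand, GRCm38), a Golgi mannosidase that trims N-glycans, was at 11.5, 12.7, 9.24 and 15.6 CPM in con and 107, 119.6, 97.2 and 115 CPM in R2b, a log2 fold change of 3.17 (SE 0.072, FDR 3.22e-09). Gjb6, a gap junction protein of the inner ear, rose from 1.63, 1.19, 1.43 and 0.599 CPM to 9.76, 5.17, 14.3 and 4.74 CPM, or 2.76 (SE 0.19, FDR 5.16e-06). The LIM homeobox gene Lhx1 rose from 2.73, 4.27, 3.08 and 2.76 CPM to 19.8, 21.4, 23.4 and 16.8 CPM, or 2.66 (SE 0.11, FDR 2.72e-07). In each of the 3 genes the lowest R2b pool was above the highest con pool, and Gjb6 varied most among the R2b pools. The synaptic adhesion gene Lrrtm4 (2.68), the carboxypeptidase-like Cpxm2 (2.56), the aminopeptidase Enpep (2.51), the small heat shock protein Cryab (2.28), the carbonic anhydrase Car3 (2.20), the hyaluronan link protein Hapln1 (2.16) and the ciliary dynein Dnah5 (2.15) followed, along with Aldh1a3. Hapln1 was the most abundantly counted of them, at 57.7, 45.3, 29.4 and 39.2 CPM in con and 215, 216, 178 and 151 CPM in R2b. Kcnab1, a potassium channel subunit, also met these criteria, but its value of 2.33 (SE 0.62, FDR 0.0134) rested on the R2b pool of litter 315 at 12.2 CPM, against 1.16 to 1.23 CPM in the other R2b pools. Without litter 315 its log2 fold change was 1.09 and it was not called.

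Etv4, Etv5, Spred3, Otx2 and Six2 were among the largest falls and are described above. Gchfr, which regulates GTP cyclohydrolase, was at 4.93, 5.36, 3.29 and 4.19 CPM in con and 0.377, 1.02, 0.801 and 1.04 CPM in R2b, a log2 fold change of -2.45 (SE 0.25, FDR 6.13e-05). Gucy1a1, a subunit of the nitric oxide receptor guanylate cyclase, fell from 10.0, 13.0, 11.04 and 9.31 CPM to 2.22, 3.41, 2.76 and 1.94 CPM, or -2.08 (SE 0.12, FDR 1.36e-06). Irs4, an insulin receptor substrate, fell from 22.98, 20.5, 13.4 and 8.48 CPM to 4.34, 3.66, 5.34 and 2.70 CPM, or -1.98 (SE 0.18, FDR 2.87e-05). None of the 3 overlapped between genotypes. The Groucho-family gene Tle6 (-1.81), the ephrin receptor Epha3 (-1.79) and the transporter-family gene Slc35f3 (-1.77) fell as well, and Epha3 differed widely among con pools, from 3.98 to 13.3 CPM.

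A shorter exposure with the same end stage, 12 hours from E9.75 (E9.75+12h), had columns for 3 litters and 6 libraries of the same genotypes. It was sequenced under another request and had mitochondrial shares of 4.00% to 6.69%, so levels were not compared, and only the R2b effects were. Hours, start stage (E9.25 or E9.75) and request differ together between the exposures, so their parts in a difference of effects cannot be told apart. Fitted alone with its litters as a block, 11.9% of 14882 genes were called there, 5.79% higher and 6.13% lower. The difference of the effects was tested in the 14 libraries of both exposures. At an FDR under 0.05, 57 of 15533 genes (0.367%) differed, 54 with a difference above 0 (E9.25+24h minus E9.75+12h) and 3 below 0. Of the 54, 47 were lower in R2b in both exposures, that is, reduced less at E9.25+24h, and 6 were higher in both. The number did not hold up to changes of the libraries. It was 0 with any 1 litter of E9.25+24h left out (1497 to 1749 genes at an unadjusted p under 0.05, against 2466 with all), 2923 without litter 052015 of E9.75+12h, 258 without 052715B and 1 without 052815, 1 without the litter block, 3 with median-of-ratios size factors and 386 with DESeq2.

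No FGF readout gene passed the threshold for a difference between the exposures. Their median log2 fold change was -1.25 after 24 hours and -1.38 after 12 hours. The difference was called for 0 of the 14 in edgeR (0 at an unadjusted p under 0.05) and 0 in DESeq2 (1 at an unadjusted p under 0.05), and the lowest FDR of the list was 0.317, for Flrt3. Etv4 was at -2.89 and -2.77, Etv5 at -2.45 and -2.50, and Spred3 at -2.24 and -2.26, in that order of exposures. A difference that misses the threshold does not show that the effects are alike.

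Mitotic genes accounted for 11 of the 57 genes that differed. Their median log2 fold change was -0.33 after 24 hours and -0.99 after 12 hours, all 26 genes were called lower in each exposure, and all 26 differences were above 0. For Bub1b the effects were -0.41 and -1.11, a difference of 0.72 (SE 0.11, FDR 0.0458), and for Cenpf, a kinetochore protein chosen here after its value was seen, -0.34 and -1.16, a difference of 0.83 (SE 0.11, FDR 0.0409). DNA replication genes had medians of -0.36 and -0.66, with 0 of 29 passing the threshold of the difference in edgeR (20 at an unadjusted p under 0.05) and 4 in DESeq2. Ribosome biogenesis genes had medians of -0.25 and -0.55, with 3 of 20 passing (Ddx21, Ncl and Nop58).

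Otic genes contributed Bmper and Gata2. Bmper was at 1.84 after 24 hours and 1.15 after 12 hours, a difference of 0.71 (SE 0.12, FDR 0.0458). Gata2 was at -0.98 and -0.24, a difference of -0.72 (SE 0.097, FDR 0.0409). Both effects were thus further from 0 at E9.25+24h. Aldh1a1 was at 1.26 and 0.31, with a difference of 0.96 (SE 0.15, FDR 0.0458), the only gene of the retinoic acid list to pass. The carbonic anhydrase Car4, at 1.77 and 0.83, and the secreted phosphoprotein Spp1, at 1.60 and 0.48, had differences of 0.96 (SE 0.13, FDR 0.0409) and 1.14 (SE 0.18, FDR 0.0458). Below 0, Dscaml1, a cell adhesion gene, was at -0.96 and 1.41, with a difference of -2.34 (SE 0.40, FDR 0.0471), and Zfp385c at -0.32 and 0.62, with a difference of -0.93 (SE 0.14, FDR 0.0458), opposite in sign in the exposures. The Zfp385c call at E9.25+24h was lost without litter 310 (FDR 0.0557), without litter 329 (FDR 0.0623) and without the litter block (FDR 0.398). The Dscaml1 call at E9.25+24h was lost without litter 3716, whose con pool held 2.67 CPM against 1.005 to 1.093 CPM in the others. Otic neurogenic genes had medians of -0.095 and 0.59, and all 19 differences were below 0, with 0 past the threshold in edgeR (9 at an unadjusted p under 0.05) and 5 in DESeq2. For that list, 7 genes were called higher after 12 hours, against 1 higher and 3 lower after 24 hours. The litter medians of the list at E9.25+24h ran from 0.37 in litter 315 to -0.96 in litter 3716, whose con pool stood apart for Elavl3 and Elavl4. The part of litter 3716 in the difference for this list was not tested.

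**Figure D5:**
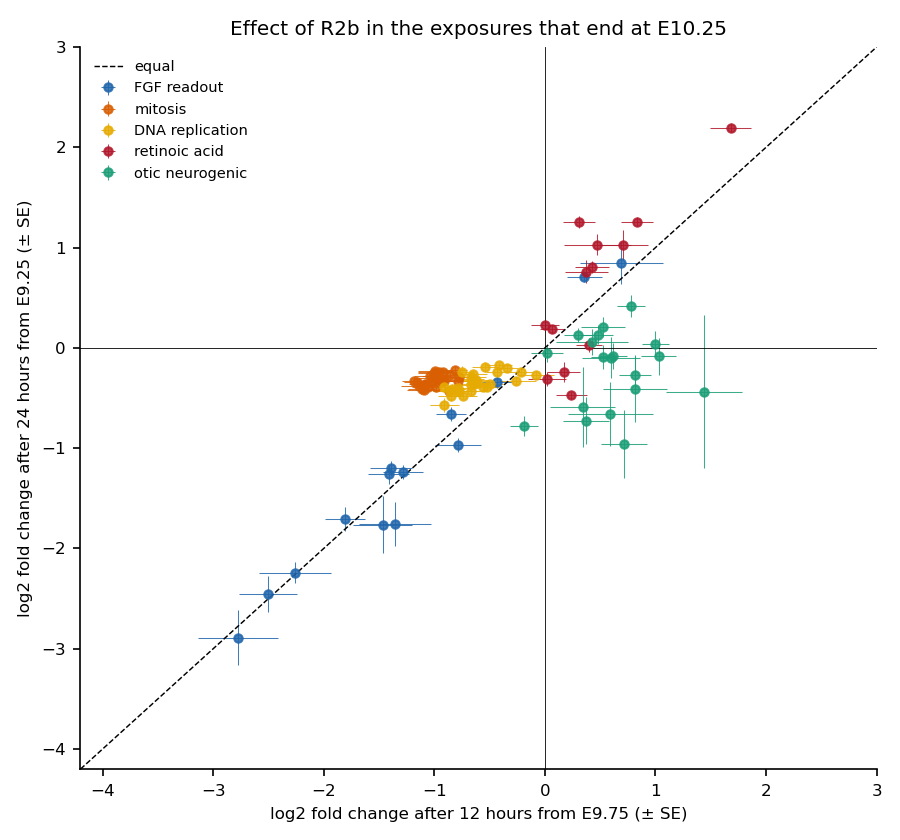
Log2 fold change of R2b over con after 24 hours from E9.25 (vertical axis) against 12 hours from E9.75 (horizontal axis), with SE bars in both directions and a dashed line of equal effects, for 5 gene lists. FGF readout genes lie along the line from Etv4 (-2.89 and -2.77) upward, mitotic genes lie above it at -0.43 to -0.22 on the vertical axis, and neurogenic genes lie below it.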

How the data were processed

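The data are RNA sequencing counts of pooled mouse otocyst epithelium, 4 con and 4 R2b libraries. The deposited values are the authors' raw counts, whole numbers for each of 15736 genes with Ensembl identifiers. Novoalign 2.08.03 and mm10 are named in the submitters' processing notes, without a role. The counting tool, the annotation and any filter on genes are not given in the sources used here, and no gene had fewer than 108 counts in all. Symbols and positions came from GENCODE M21 (GRCm38), which named 15522 of the genes. Library totals and the spread between litters set the precision: chi-square per degree of freedom between libraries of a genotype was 5.48 to 30.3 over genes averaging 20 counts or more, so that no library repeated another. Reads carry no molecular identifiers. In the table, 2 columns matched no sample and were not used, and 2 samples of E9.75+12h had no column.

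Counts were fitted with edgeR 4.0.16 in R 4.3.3 (filterByExpr, TMM, estimateDisp, glmQLFit, glmQLFTest), with litter as a block and genotype. Each pair of pools came from 1 female, per the labels. Deviations from the group means correlated within litters at 0.42, 0.49, 0.77 and 0.75 across genes in E9.25+24h, and at -0.24, -0.26 and -0.12 in E9.75+12h, where the pairing rests on the labels alone. FDR is the Benjamini-Hochberg adjusted p over all genes tested. CPM used TMM library sizes, and prior counts were 2 for log2 CPM and 0.125 for fitted fold changes. The difference of effects was a contrast in 14 libraries. E10.25+24h was not compared. The script was tested on simulated data. Alternatives used DESeq2 1.42.0, limma 3.58.1, other filters and normalizations, and left out each litter.

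The 27 gene lists and 8 marker lists, and the libraries, were chosen with earlier results of these data known, so counts over a list are descriptions. Genes were named by rule: every FGF readout gene, up to 4 called members of each list by smallest FDR, called markers, the 12 largest rises and falls among called genes (mean log2 CPM at least 1, same sign in 4 of 4 litters), and the 3 largest differences of effect in each direction. Some of the genes so chosen are not reported here. Other list members are named to complete a list or its range, after their values were seen. Promoter sequences are from RefSeq.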

Additional observations from a re-analysis of the deposited data

Results flagged for a closer look

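A library stood apart from the other 3 of its genotype in 23 of 312 groups of 4 libraries over the 156 named genes (7.37%), by Dixon's 95% criterion, where chance gives about 1 in 20. The con pool of litter 3716 was highest in 8 of these. It held the neuronal genes Elavl4 at 25.43 CPM and Elavl3 at 37.55 CPM, the red cell genes Slc4a1 at 29.81 CPM and Hba-x at 326.3 CPM, and the endothelial genes Cldn5 at 10.46 CPM, Kdr at 70.68 CPM and Plvap at 27.23 CPM. Dscaml1 was at 2.672 CPM there, and Spred3 was lowest there at 39.07 CPM against 52.05 to 52.71 CPM in the other con pools.

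The R2b pool of litter 3716 was also highest for Cldn5 (5.872 CPM) and Plvap (10.42 CPM), so these endothelial genes stood apart in both genotypes of that litter. It was highest for Spred2, at 34.52 CPM against 21.27 to 23.43 CPM, and for Epha3, at 3.883 CPM against 1.914 to 2.144 CPM. It was lowest for Igfbp5 at 1158 CPM and for Cdh1 at 196.1 CPM. The part of non-otic RNA in the otic and FGF genes of this litter was not tested.

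In the con pool of litter 329, the FGF ligand genes Fgf3 (16.51 CPM against 8.617 to 9.906) and Fgf15 (5.839 CPM against 3.725 to 4.021) were highest, and Cpxm2 (1.433 CPM) and the Hedgehog target Gli1 (37.85 CPM against 51.37 to 52.57) were lowest. Its R2b pool was highest for Ednrb at 32.4 CPM and lowest for Ccng1 at 81.04 CPM. The R2b pool of litter 315 was highest for Kcnab1 at 12.18 CPM, 1.157 to 1.231 CPM in the others, and for Ddit4 at 193.6 CPM.

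For 8 of the 156 named genes the effect differed between the exposures that end at E10.25, in the contrast of edgeR at an FDR under 0.05. As E9.25+24h minus E9.75+12h on the log2 scale, the differences were -2.34 for Dscaml1, -0.93 for Zfp385c, -0.72 for Gata2, 0.71 for Bmper, 0.72 for Bub1b, 0.96 for Car4, 0.96 for Aldh1a1 and 1.14 for Spp1. With any 1 litter of E9.25+24h left out, edgeR called 0 differences over all genes (1497 to 1749 at an unadjusted p under 0.05), while DESeq2 on all libraries called 386.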

How the results depend on the processing

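Of 6086 calls, 3071 were higher and 3015 lower. Without the replicate block, where the paired pools are treated as unpaired, edgeR gave 2335 (1362 higher, 973 lower). All 22 libraries in 1 fit gave 2603 (1578 and 1025), of which 2572 were among the 6086 with the same direction. A fold change of at least 1.5 left 1442 (1132 and 310), which moved the higher share from 50.5% to 78.5%. Lower calls ran from 1953 (without litter 315) to 2973 with a litter left out. DESeq2 called 4322, of which 4314 were shared, all in the same direction. Median-of-ratios size factors, no filter, a mean CPM of at least 1, robust dispersion, limma voom and removal of Fgfr2 and Ighg1 gave 5874 to 6175.

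Genes whose effect differed between exposures numbered 57, and 1 without the replicate block, 3 with median-of-ratios size factors, 386 with DESeq2 and 0 to 2923 with a litter left out. The cause was not tested.

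Of 156 named genes, none changed sign under any alternative run at E9.25+24h. Calls lost were 47 without the block, 61 with the fold required, 27 in the fit of all libraries, 10 with DESeq2, 7 with robust dispersion and 1, 5, 6 and 9 without litters 310, 315, 329 and 3716. Genes near 1 CPM, such as Egr1, Enpep and Lama3 in con, rest on few counts.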

Other observations

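After the rises of Car3, Gjb6 and S100a1 were seen, all tested members of their families and the collagens were counted, as a description. The counts and medians include those 3 genes, which prompted the choice. Over all genes tested, 20.5% were called higher and 20.1% lower. Of 6 genes of S100 calcium-binding proteins tested, 5 were called higher, with a median log2 fold change of 1.18. They were S100a1 (2.11), S100a13 (1.66), S100a6 (1.26), S100a10 (1.09) and S100a11 (1.02), while S100a16 (0.04) was not called. S100a10 is the partner of annexin A2, whose gene Anxa2 rose by 1.61. Connexin genes, whose proteins form gap junctions, gave 4 higher and 2 lower calls among 8. The higher ones were Gjb6 (2.76), Gjb2 (1.74), Gja1 (1.01) and Gjb5 (0.86), and the lower ones Gjb1 (-0.65) and Gjc1 (-0.20). GJB2 and GJB6 are the connexins of the cochlea known from hereditary deafness, and their genes held the largest rises of the family.

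Carbonic anhydrase genes gave 3 higher calls, Car3 (2.20), Car4 (1.77) and Car2 (0.71), and 1 lower call, Car14 (-0.57), among 11. These counts do not set the family apart from the shares over all genes tested, and Car3 itself prompted the count. Of 30 collagen chain genes outside type IV, calls were higher for 14 and lower for 4, and the median was 0.30. The largest rises were Col5a3 (1.93) and Col14a1 (1.49), and the lower calls were Col15a1 (-0.65), Col13a1 (-0.59), Col12a1 (-0.48) and Col27a1 (-0.30). Col15a1, Col13a1 and Col12a1 had overlapping ranges. Like the blood and endothelial sums, they were highest in litter 3716 and lowest in litter 329 in both genotypes. Col15a1 was at 7.09, 3.13, 0.690 and 47.7 CPM in con. The part of non-otic RNA in these calls was not tested. Both chains of type XI collagen tested, Col11a1 (1.16) and Col11a2 (1.32), and Col2a1 (0.42) and Col9a1 to Col9a3 (0.34 to 0.53), which assemble with them in cartilage and in the tectorial membrane, were called higher. Of the other fibrillar chains, Col5a1 (0.33) was also called higher, and Col1a1 (0.08), Col1a2 (0.14), Col3a1 (0.12), Col5a2 (0.64) and Col24a1 (0.49) were not called, while Col27a1 is the fibrillar chain among the lower calls.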
